A study of Mus musculus with 2 samples.

Results

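Aminoacyl-tRNA synthetases join each amino acid to its tRNA, the step that supplies charged tRNA to the ribosome. In mammals the cytosol and the mitochondrion have largely separate sets of these enzymes, both encoded in the nucleus and both translated on cytosolic ribosomes. Several cytosolic enzymes are held together with the scaffold proteins AIMP1, AIMP2 and the AIMP3 product of Eef1e1 in the multisynthetase complex. Tryptophanyl-tRNA synthetase, encoded by Wars, is known to be induced by interferon, chiefly interferon gamma, and the transcription factor ATF4 induces many cytosolic synthetase genes when amino acids run short.

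The genes described here were taken from a list of 38 gene symbols, namely 20 cytosolic synthetases, 16 mitochondrial synthetases and 2 scaffold proteins. All 38 were found in the deposited table, out of 22088 genes with a symbol on the array, and each gene was represented by its probe set with the highest mean signal over both arrays. The array annotation bears out the split by compartment in part. All 16 enzymes whose names end in 2 carried the component term mitochondrion, but so did 7 of the 20 enzymes listed as cytosolic, among them Gars and Kars, which are known to serve both compartments.

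The samples were polysomal RNA of Oasl1-/- macrophages, 1 array, and of wild-type (WT) macrophages, 1 array. Both came from marrow of C57BL/6J mice, were grown for 7 days with 20% supernatant of L929 cells, which secrete the macrophage growth factor, and were both given poly(I:C), a double-stranded RNA that mimics viral RNA, at 10 µg/ml for 12 h. The RNA was that of fractions 9, 10 and 11 of the 16 fractions of a sucrose gradient, run in the presence of cycloheximide, which holds ribosomes on mRNA. OASL1 is an interferon-induced protein known to restrain translation of the interferon regulatory factor IRF7, and the comparison asks which mRNAs differ on polysomes when it is missing. The labels give neither the deleted part of Oasl1 nor the number of mice, and neither an untreated array nor one of total RNA was analysed here.

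Values are log2 signals after RMA. It removes background, gives the probe intensities of both arrays the same distribution and then reduces each probe set to 1 value. The resulting values can still differ in distribution between the arrays. Differences are the Oasl1-/- log2 signal minus the WT log2 signal. With 1 array per genotype there is no replicate check, no error can be attached to a difference, and no test between genotypes was possible. How much of an mRNA there is and how much of it sits on polysomes both set its signal here, and in bulk RNA fewer cells of a type and less RNA per cell cannot be told apart. A gene was counted when its log2 signal reached 7 on at least 1 array, near the background limit set by 5222 probe sets in introns, of which 95% lay inside a range that ended at 7.34 on the Oasl1-/- array and 7.13 on the WT array. This left 7835 genes, whose median difference was -0.09 with an SD over genes of 0.39, and a list is read against that median and not against 0. Oasl1 itself had a log2 signal of 9.14 on the Oasl1-/- array and 10.70 on the WT array, a difference of -1.57. All 8 macrophage markers passed the floor and none of 23 markers of T cells, B cells, neutrophils, dendritic cells, fibroblasts or erythroid cells did. The macrophage markers differed by 0.00 to 0.59, with a median of 0.11, and their part in the synthetase results was not tested.

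Synthetase signals were slightly lower on the Oasl1-/- array for most members, and none differed 2-fold. Of the 38 members 28 passed the floor, each of them on both arrays, and the other 10 were all mitochondrial enzymes. Of the 28, 22 were lower and 6 higher in Oasl1-/- macrophages, which is 78.6% lower, where 60.6% of all 7835 genes were lower and 39.1% higher. With a loess trend of difference on signal removed, 20 of the 28 were lower, where 50.6% of all genes were. Their median difference was -0.22, against -0.09 over all genes. At least 1.5-fold lower was 1 member, Iars, where 6.28% of all genes were, and at least 1.5-fold higher were 0 members, where 5.27% of all genes were. No member was at least 2-fold lower, against 0.651% of all genes, or at least 2-fold higher, against 1.57%. Most members thus differed by small amounts in one direction, and the share past 1.5-fold was no larger than among all genes.

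**Figure D1:**
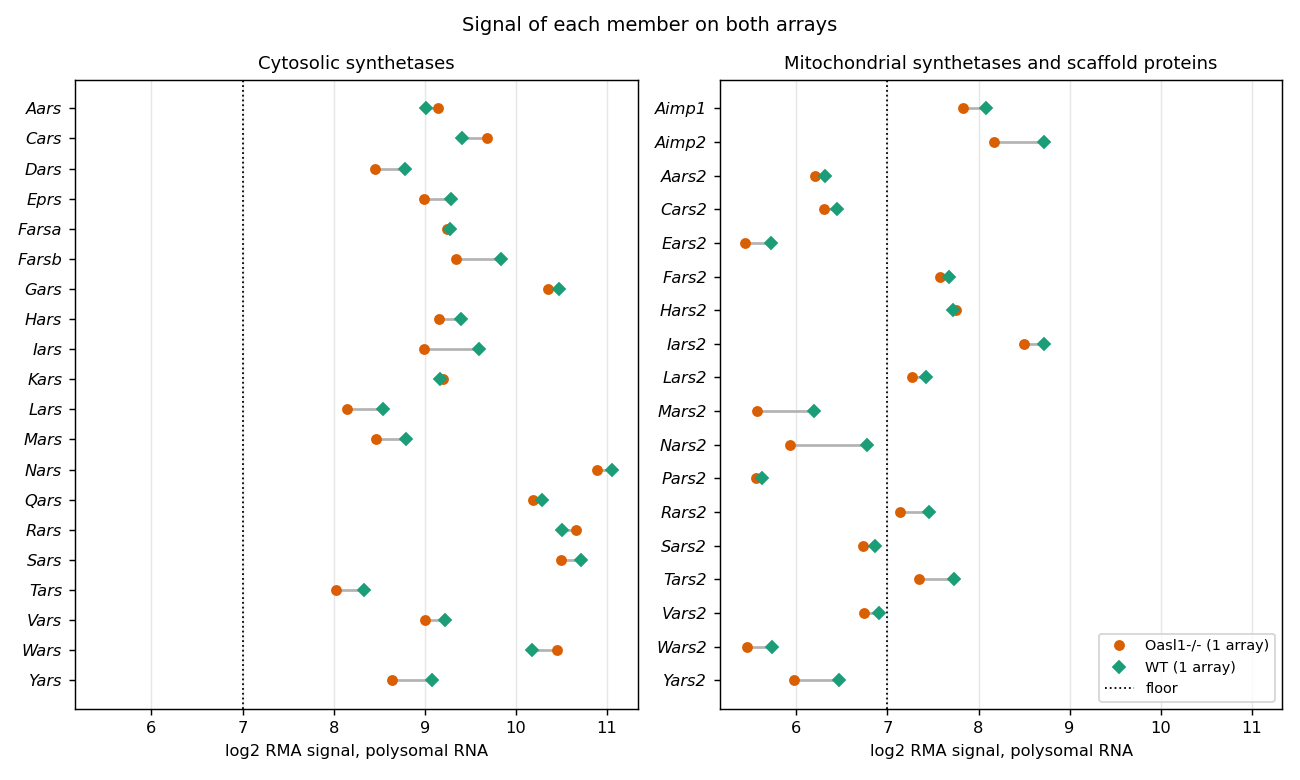
Log2 RMA signal (x axis) of each of the 38 members on the Oasl1-/- array (orange circles) and the WT array (green diamonds), 1 array each, with the floor of 7 as a dotted line. The orange circle lies left of the green diamond for most genes, Wars and Cars are among those where it lies right, and 10 mitochondrial enzymes lie left of the floor on both arrays. Positions of different genes depend on their probes and are not a comparison of mRNA amounts.

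The differences of the 28 members were spread over a range, and the widest step lay between Wars at 0.28 and Rars at 0.16. Only Cars and Wars lay above that step, which was not tested.

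**Figure D2:**
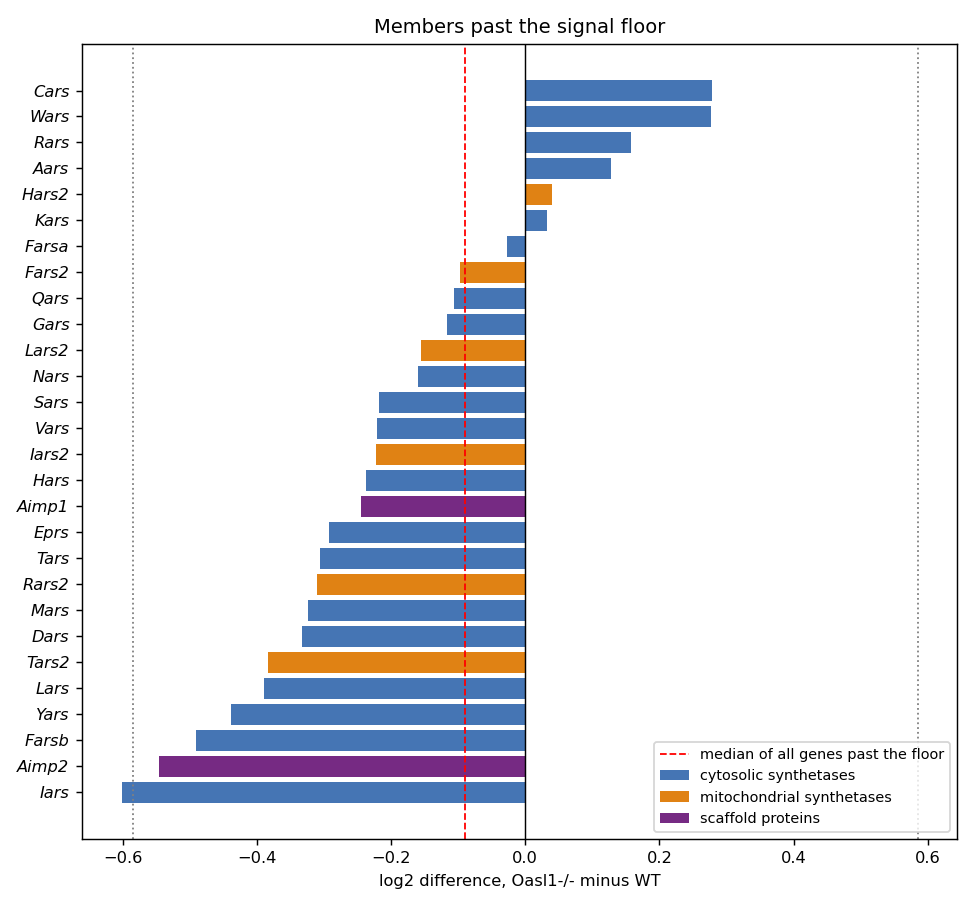
Log2 difference, Oasl1-/- minus WT (x axis), of the 28 members past the floor, ordered from highest to lowest and coloured by class. The dashed red line is the median of all 7835 genes, -0.09, and the dotted grey lines mark 1.5-fold. Only Iars reaches the 1.5-fold line, with 6 bars above 0 and 22 below.

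The 20 cytosolic synthetases all passed the floor, and 15 were lower and 5 higher in Oasl1-/- macrophages. That is 75% lower, against 60.6% of all genes. The median difference of the 20 was -0.22, and their values ran from -0.60 for Iars to 0.28 for Cars. The sign held for 19 of the 20 in all 5 scalings of the signals that were tried. The exception was Farsa, which was level.

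Iars, the isoleucine enzyme of the multisynthetase complex, had the lowest difference of the members past the floor. Its log2 signal was 8.99 in Oasl1-/- macrophages and 9.59 in WT macrophages, a difference of -0.60, or 1.52-fold lower. Only 5.78% of all genes past the floor had a difference that low or lower. The set has 24 probes over chromosome 13, plus strand, 49777512 to 49829629 on NCBIM37. The array has a second probe set annotated as Iars, with 25 probes at chromosome 1 (19322375 to 19323270), where the log2 signals were 8.15 in Oasl1-/- and 8.78 in WT macrophages, a difference of -0.63. The 2 probe sets thus gave close values, though they share the hybridisation and may detect the same mRNA. Iars differed by -0.51 once all differences were centred on the median gene, by -0.55 with a loess trend removed, by -0.55 after quantile normalization and by -0.57 with a pseudocount of 32, each short of 1.5-fold.

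The other cytosolic enzymes near the low end were Farsb, Yars and Lars. Farsb, the beta subunit of phenylalanyl-tRNA synthetase, had log2 signals of 9.34 in Oasl1-/- and 9.83 in WT macrophages, a difference of -0.49. Farsa, the alpha subunit of the same enzyme, was level at 9.25 in Oasl1-/- and 9.27 in WT macrophages, a difference of -0.03 that became 0.06 after centring and 0.02 after loess. The subunits of this enzyme therefore had unequal differences, 0.46 apart on the log2 scale. Yars, the tyrosine enzyme, had 8.64 in Oasl1-/- and 9.08 in WT macrophages, a difference of -0.44. Lars, the leucine enzyme, which is also known as a leucine sensor for mTORC1, had 8.15 in Oasl1-/- and 8.54 in WT macrophages, a difference of -0.39. Each of Farsb, Yars and Lars was lower in all 5 scalings.

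Next came a run of enzymes with differences between -0.33 and -0.21. Dars, the aspartate enzyme, had 8.45 in Oasl1-/- and 8.78 in WT macrophages, and Mars, the methionine enzyme, had 8.47 in Oasl1-/- and 8.79 in WT macrophages, so that their differences were -0.33 and -0.32. Tars, the threonine enzyme, had 8.03 in Oasl1-/- and 8.33 in WT macrophages, a difference of -0.31. Eprs, a fused enzyme for glutamate and proline that also serves in an interferon gamma-dependent translational control complex in human myeloid cells, had 9.00 in Oasl1-/- and 9.29 in WT macrophages, a difference of -0.29. These 4 enzymes lay within 0.04 of each other, which the arrays cannot order. Hars, for histidine, had 9.16 in Oasl1-/- and 9.40 in WT macrophages, a difference of -0.24. Vars, for valine, had 9.00 in Oasl1-/- and 9.23 in WT macrophages, and its difference was -0.22. Sars, for serine and for the first step of selenocysteine synthesis, had 10.50 in Oasl1-/- and 10.72 in WT macrophages, a difference of -0.22 that lay at the median of the cytosolic enzymes.

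Nars, Gars and Qars differed little from the bulk of all genes. Nars, the asparagine enzyme, had 10.89 in Oasl1-/- and 11.05 in WT macrophages, a difference of -0.16. Gars, the glycine enzyme of both compartments, had 10.36 in Oasl1-/- and 10.48 in WT macrophages, a difference of -0.12. Qars, the glutamine enzyme, had 10.19 in Oasl1-/- and 10.29 in WT macrophages, a difference of -0.11. After centring, Gars and Qars were at -0.03 and -0.02, so they stood where the median gene stood.

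The 5 cytosolic enzymes that were higher in Oasl1-/- macrophages were Cars, Wars, Rars, Aars and Kars, and each was higher in all 5 scalings. Cars, the cysteine enzyme, had log2 signals of 9.69 in Oasl1-/- and 9.41 in WT macrophages, a difference of 0.28, or 1.21-fold. Rars, the arginine enzyme of the complex, had 10.66 in Oasl1-/- and 10.50 in WT macrophages, a difference of 0.16. Aars, the alanine enzyme, had 9.15 in Oasl1-/- and 9.02 in WT macrophages, a difference of 0.13. Kars, the lysine enzyme of both compartments, had 9.20 in Oasl1-/- and 9.17 in WT macrophages, a difference of 0.03 that was 0.12 after centring and 0.08 after loess. All 5 differences were smaller in size than the SD of 0.39 over all genes, as were those of most lower cytosolic enzymes. That SD is a spread over genes and not the error of a difference.

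Wars, the interferon-inducible member, was 1.21-fold higher in Oasl1-/- macrophages, an amount matched by Cars. Its log2 signal was 10.46 in Oasl1-/- and 10.18 in WT macrophages, a difference of 0.28, which stood at the 83.8 percentile of all genes past the floor. The 36 probes lie over chromosome 12, 110098244 to 110132323, on the minus strand (NCBIM37). The difference was 0.37 after centring, 0.29 after loess, 0.32 after quantile normalization and 0.27 with a pseudocount of 32. A list of 19 antiviral genes induced by type I interferon had a median difference of 0.59. The list was chosen with its values known, so its counts cannot be weighed against those of all genes. All 19 were higher in Oasl1-/- macrophages, where 39.1% of all genes were. At least 1.5-fold higher were 11 of them, where 5.27% of all genes were. Their differences ran from 0.01 for Irf9 to 1.66 for Ifi44, and Oas1a was at 0.26, so that Wars lay within the range of that list, close to its low end. Both arrays were of cells given poly(I:C), so the values do not show how far Wars was induced. Wars2, the mitochondrial tryptophan enzyme, was below the floor at 5.46 in Oasl1-/- and 5.73 in WT macrophages. The enzymes that break tryptophan down were below the floor on both arrays in all 7 cases, with Ido1 at 4.27 in Oasl1-/- and 3.91 in WT macrophages, so no difference is read from them.

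**Figure D3:**
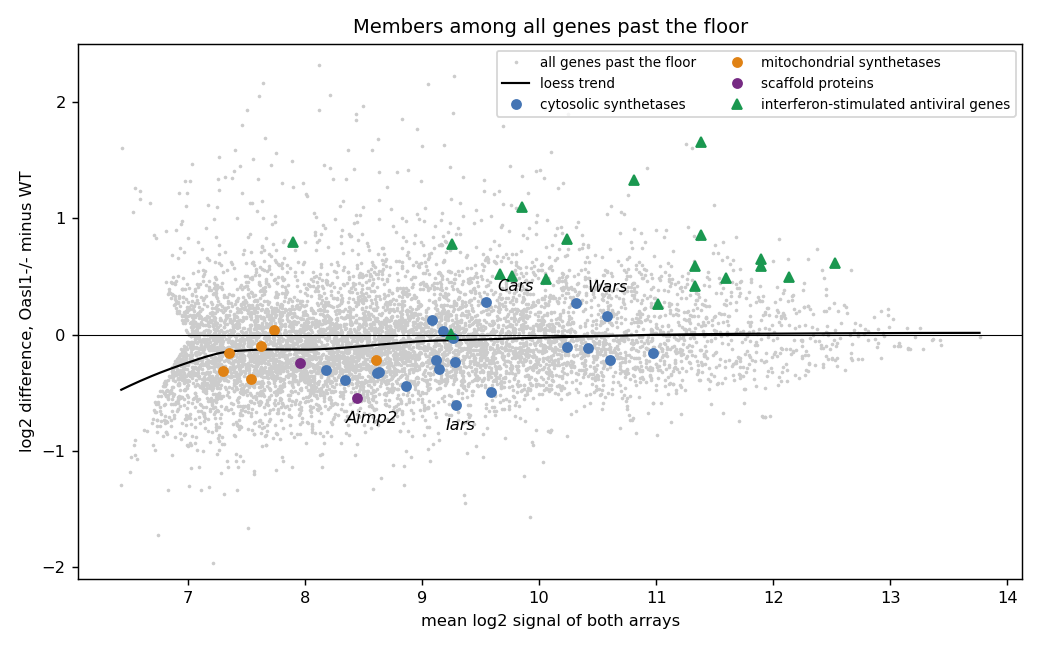
Log2 difference, Oasl1-/- minus WT (y axis), against the mean log2 signal of both arrays (x axis) for 7835 genes past the floor (grey), with the loess trend as a black line. Synthetases (blue and orange) and scaffold genes (purple) lie mostly just below the trend, and the 19 interferon-stimulated genes (green triangles) lie above 0, with Wars at 0.28 near the lowest of them.

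Members of the multisynthetase complex had a lower median than the enzymes outside it, though the ranges overlapped. The 8 synthetases of the complex had a median difference of -0.31, with 6 lower and 2 higher, and ran from -0.60 for Iars to 0.16 for Rars. The 12 cytosolic enzymes outside the complex had a median of -0.19, with 9 lower and 3 higher, and ran from -0.49 for Farsb to 0.28 for Cars. The share lower was 75% both inside and outside the complex, against 60.6% of all genes. After loess the medians lay closer together, at -0.24 in the complex and -0.16 outside it, and after quantile normalization they were -0.26 and -0.14. The scaffold gene Aimp1, whose product is also the precursor of the cytokine EMAP II, had log2 signals of 7.83 in Oasl1-/- and 8.08 in WT macrophages, a difference of -0.24. Aimp2, the other scaffold gene, had 8.17 in Oasl1-/- and 8.72 in WT macrophages, a difference of -0.55, or 1.46-fold lower, just short of the threshold that Iars passed. Eef1e1, which encodes the third scaffold protein and is not a listed member, had 9.01 in Oasl1-/- and 9.75 in WT macrophages, a difference of -0.74. All 3 scaffold genes were thus lower in Oasl1-/- macrophages.

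Synthetases fall into 2 structural classes with unrelated catalytic folds, and both classes held lower and higher members. Class I ran from -0.60 for Iars to 0.28 for Cars, and class II from -0.49 for Farsb to 0.13 for Aars. The fused enzyme gene Eprs was counted in class I only. The 10 cytosolic genes of class I, with Iars, Cars and Wars among them, had a median of -0.26, with 7 lower and 3 higher. The 10 of class II, with Farsb and Aars among them, had a median of -0.19, with 8 lower and 2 higher. The shares lower were 70% in class I and 80% in class II, against 60.6% of all genes.

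Most mitochondrial synthetases that could be measured were lower in Oasl1-/- macrophages, with a median close to the cytosolic one on the deposited scale but nearer to 0 after loess. Of the 16, 6 passed the floor, with 5 lower and 1 higher in Oasl1-/- macrophages and a median difference of -0.19. That is 83.3% lower, against 60.6% of all genes. After loess 4 of the 6 were lower, where 50.6% of all genes were. The loess medians were -0.071 for these 6 mitochondrial genes and -0.18 for the cytosolic ones. Tars2, for threonine, had log2 signals of 7.35 in Oasl1-/- and 7.73 in WT macrophages, a difference of -0.38. Rars2, for arginine, had 7.14 in Oasl1-/- and 7.45 in WT macrophages, a difference of -0.31. Iars2, for isoleucine, had 8.50 in Oasl1-/- and 8.72 in WT macrophages, a difference of -0.22. These 3 were lower in all 5 scalings, and so was Lars2, though barely in one of them. Lars2, for leucine, had 7.27 in Oasl1-/- and 7.43 in WT macrophages, a difference of -0.16 that was -0.01 after loess. Fars2, for phenylalanine, had 7.58 in Oasl1-/- and 7.67 in WT macrophages, a difference of -0.10 that was 0.03 after loess and 0.00 after quantile normalization. Hars2, for histidine, had 7.76 in Oasl1-/- and 7.72 in WT macrophages, a difference of 0.04 that was 0.13 after centring, 0.17 after loess and 0.14 after quantile normalization. Tars2 lay furthest from the median gene among these 6 in all 5 scalings, while after loess Hars2 lay further from it than Rars2.

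The other 10 mitochondrial enzymes were below the floor on both arrays, with log2 signals of 5.44 to 6.74 in Oasl1-/- macrophages and 5.62 to 6.91 in WT macrophages. At that brightness part of the signal is background, so no difference is read from single genes. Nars2 had 5.93 in Oasl1-/- and 6.78 in WT macrophages, Mars2 had 5.57 in Oasl1-/- and 6.20 in WT macrophages, and Yars2 had 5.97 in Oasl1-/- and 6.47 in WT macrophages, the widest gaps of the 10. Aars2, Cars2, Ears2, Pars2, Sars2, Vars2 and Wars2 had smaller gaps.

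Enzymes of the same amino acid had unlike differences in several cases. Of the 7 pairs with both partners past the floor, with Fars2 paired to each subunit of the cytosolic enzyme, the cytosolic difference was the higher in 3 and the lower in 4. The arginine pair stood furthest apart in one direction, with Rars at 0.16 and Rars2 at -0.31. In the other direction Farsb at -0.49 and Fars2 at -0.10 stood furthest apart. The isoleucine pair came close behind, with Iars at -0.60 and Iars2 at -0.22. The threonine pair was alike, with Tars at -0.31 and Tars2 at -0.38. Hars and Hars2 are neighbours on chromosome 18 that run in opposite directions, Hars on the minus strand from 36942830 downwards and Hars2 on the plus strand from 36942934 upwards (NCBIM37), 104 bases apart. They had differences of -0.24 and 0.04.

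**Figure D4:**
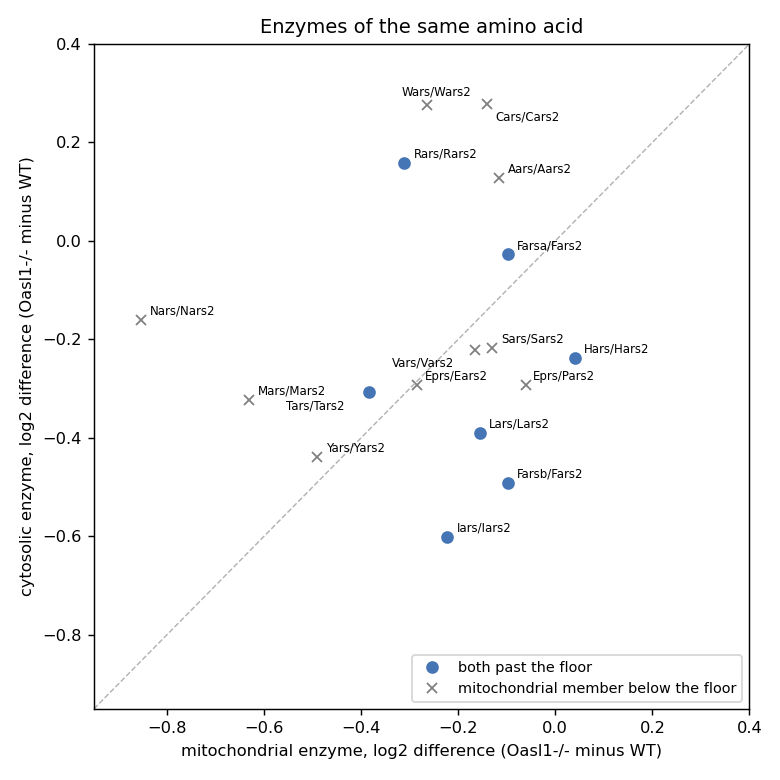
Log2 difference, Oasl1-/- minus WT, of the cytosolic enzyme (y axis) against that of the mitochondrial enzyme for the same amino acid (x axis), with the line of equality dashed. Filled circles are the 7 pairs with both partners past the floor, which fall on both sides of the line, and crosses are pairs whose mitochondrial partner was below the floor.

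Because ATF4 is a known inducer of synthetase genes and MYC a known inducer of genes for protein synthesis, promoters were searched for their elements. RefSeq promoter windows on GRCm38.p6, which run from 250 bases before to 50 bases after the annotated start, were held for 29 of the 38 members, 13 of them cytosolic. The letters TGATGNAA, on either strand, are the core of the composite element of ATF4 and C/EBP. They were found in the windows of 5 members, all cytosolic, among them Gars, Iars, Tars and Yars, where 3.97% of all 32851 windows hold them. The E-box CACGTG, which MYC can bind and which reads the same on both strands, was found in 5 members, among them Farsb, Iars, Tars and Ears2, where 7.15% of all windows hold it. The core of the interferon-stimulated response element, searched on either strand as GAAA, any NN and GAAA again, was found in the window of 1 member, Qars, where 3.44% of all windows hold it. In the windows of Iars and Tars, which hold both, the composite element and the E-box do not overlap. A member was counted when any of its windows held a match, while the shares are of single windows. A gene with several windows had more sequence to match, so the counts and the shares are not directly comparable.

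The composite element of 4 cytosolic genes is shown with 30 bases each, 5′ to 3′ on the gene's strand, with the element in capitals, because these genes share a motif and yet range from near the median gene to the lowest member past the floor. Where the element is written TTGCATCA or TTTCATCA it lies on the opposite strand.
Gars, chr6:55037960-55037989, plus strand: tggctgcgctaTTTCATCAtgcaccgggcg
Iars, chr13:49682126-49682155, plus strand: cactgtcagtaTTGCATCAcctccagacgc
Tars, chr15:11399655-11399684, minus strand: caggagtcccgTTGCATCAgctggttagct
Yars, chr4:129189895-129189924, plus strand: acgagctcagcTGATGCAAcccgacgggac

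These 4 genes had differences of -0.12 for Gars, -0.60 for Iars, -0.31 for Tars and -0.44 for Yars. They therefore included the lowest of the members past the floor. The other member with the element is not reported here, so the range of these 4 need not be that of all 5 carriers. The 250 bases before the start of Iars are given in full because it is the member past the floor that lies furthest from the median gene. Capitals mark its E-box, CACGTG, and its composite element lies 11 bases after the start and so outside the stretch.
Iars, chr13:49681880-49682129, plus strand: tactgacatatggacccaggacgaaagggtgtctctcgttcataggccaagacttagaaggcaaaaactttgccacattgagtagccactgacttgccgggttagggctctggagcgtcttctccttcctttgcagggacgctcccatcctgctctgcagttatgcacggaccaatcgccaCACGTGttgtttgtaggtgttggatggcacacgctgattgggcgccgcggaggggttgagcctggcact
A match to these letters describes the sequence and does not show that a factor binds there.

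ATF4 and genes of the amino acid response were spread on both sides of 0. Of 26 such genes 15 passed the floor, with 8 lower and 7 higher in Oasl1-/- macrophages and a median of -0.05, above the -0.22 of the synthetases. The share lower was 53.3%, against 60.6% of all genes. Atf4 was level, with 8.73 in Oasl1-/- and 8.78 in WT macrophages, a difference of -0.05. Asns, asparagine synthetase, had 8.86 in Oasl1-/- and 8.05 in WT macrophages, a difference of 0.82 and the highest of the list. Phgdh, which opens serine synthesis, had 7.58 in Oasl1-/- and 6.98 in WT macrophages, a difference of 0.60 over 8 probes on chromosome 3. A second probe set annotated as Phgdh, with 27 probes on chromosome 7, differed by 0.41. Shmt2, a mitochondrial serine hydroxymethyltransferase, had 6.92 in Oasl1-/- and 7.47 in WT macrophages, a difference of -0.55. The set of 8 probes for Phgdh passed the floor only through the Oasl1-/- array. Its second set, at 7.43 in Oasl1-/- and 7.02 in WT macrophages, passed on both. Shmt2 was 1 of 2 genes of the list that passed only through the WT array and so had to be lower. At least 1.5-fold higher were 2 of these genes, where 5.27% of all genes were, and 1 with a pseudocount of 32. At least 1.5-fold lower were 0, where 6.28% of all genes were.

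Other genes of tRNA handling were lower in Oasl1-/- macrophages as well, with medians that depended on the scaling. Of 20 tRNA modification genes past the floor, out of 35 listed, 16 were lower and 4 higher, where 60.6% of all genes were lower, with a median of -0.26 that was -0.14 after loess. The widest differences were those of Mettl1, which methylates guanosine, at -0.69, the dihydrouridine synthase gene Dus1l at -0.59 and the adenosine methyltransferase subunit gene Trmt61a at -0.48. Of 19 tRNA maturation and export genes 10 passed the floor, and all 10 were lower, where 60.6% of all genes were. Their median was -0.38, and -0.20 after loess. The loess median of the 28 synthetase members was -0.16. Among the maturation genes, Rpp14, Pop7 and Rpp38, subunit genes of RNase P and its relative RNase MRP, differed by -0.72, -0.52 and -0.43. Rpp14, Rpp38 and Trmt61a were below the floor on the Oasl1-/- array, so the sizes of their differences depend on background. In each of these lists 3 genes passed the floor only through the WT array and so had to be lower in Oasl1-/- macrophages. Counted by the mean of both arrays instead, 14 of 18 modification genes and 8 of 8 maturation genes were lower, with medians of -0.22 and -0.30. By that count 4520 of all 7523 genes were lower, with a median of -0.08.

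Genes that carry charged tRNA onward gave small counts. The elongation factor 1 genes Eef1b2 and Eef1d differed by -0.30 and -0.30 and Eef1a1, whose product brings aminoacyl-tRNA to the ribosome, by -0.04. Mitochondrial tRNA is also charged by an indirect route or formylated after charging. The 4 measured genes of these steps were lower, again where 60.6% of all genes were. They were Mtfmt, which formylates methionyl-tRNA, at -0.37, and the amidotransferase subunit genes Gatc, Pet112l and Qrsl1 at -0.72, -0.46 and -0.30. Gatc and Qrsl1 passed the floor only through the WT array and so had to be lower in Oasl1-/- macrophages. Counted by the mean of both arrays instead, 3 of 3 genes were lower, where 4520 of all 7523 genes were, with a median of -0.37. Aarsd1, which edits mischarged alanine tRNA, differed by -0.31. Of 6 selenocysteine genes past the floor 5 were lower, where 60.6% of all genes were. Sephs2, a selenophosphate synthetase gene, was at -0.85, Trnau1ap at -0.37 and Eefsec at -0.21. Sepsecs was at -0.19, Sephs1 at -0.05 and Secisbp2 at 0.10. Secisbp2 passed the floor only through the Oasl1-/- array. In every one of these tRNA lists the median lay below the -0.09 of all genes, as that of the synthetases did.

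**Figure D5:**
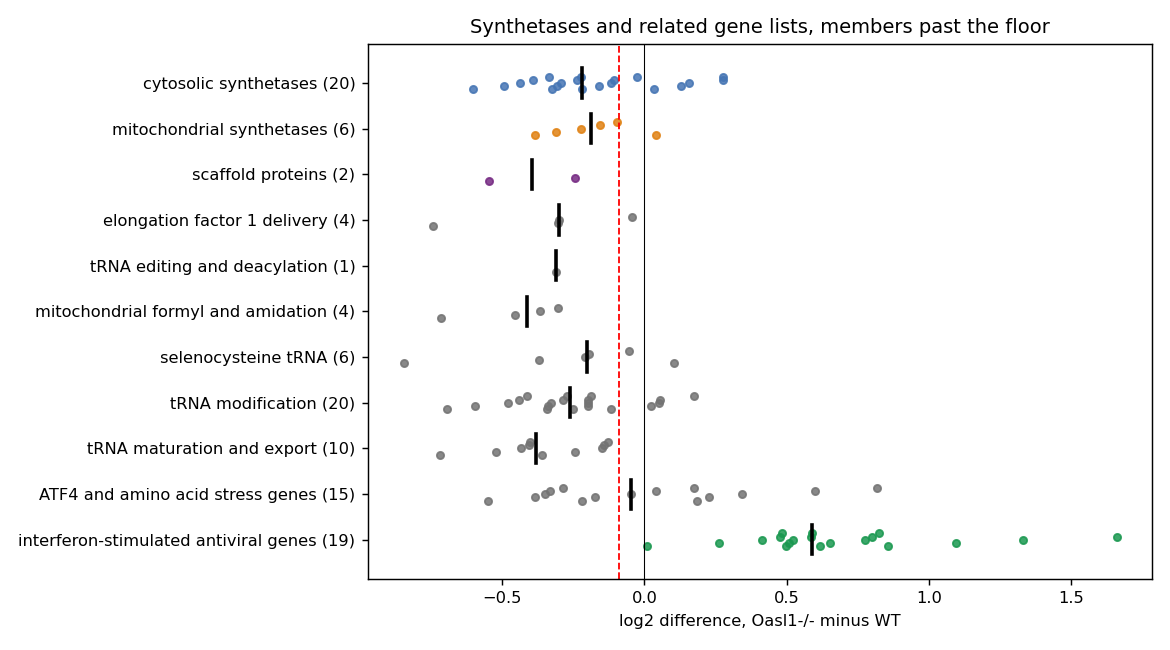
Log2 difference, Oasl1-/- minus WT (x axis), of the synthetase groups and the related gene lists, with 1 point per gene past the floor, the number of genes in brackets, the list median as a black bar and the median of all genes, -0.09, as a dashed red line. The tRNA lists have medians of -0.20 to -0.41, the ATF4 list straddles 0 and the interferon-stimulated genes lie at or above 0.01.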

How the data were processed

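The authors deposited log2 signals of 35556 probe sets on a whole-transcript Affymetrix array (Mouse Gene ST, version 1.0) for 1 Oasl1-/- and 1 WT array. GCOS and RMA are named per the submitters' processing notes, and the series design text adds Expression Console 1.1 and affy 2.9.2 in R. The deposited log2 ratio equalled Oasl1-/- minus WT in all 35556 rows, and the deposited unsigned fold change was not used. The value table deposited with the series matched these log2 signals row by row. Coordinates are on NCBIM37, as the authors' table gives them, and promoter sequences are from RefSeq on GRCm38.p6, matched by accession.

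The members and lists were chosen with earlier results of these data known. Named genes were all members, and of each related list the 3 widest differences past the floor or, with 6 or fewer past it, every gene. Atf4 and the named genes of the interferon-stimulated list, which was added later, fall outside this rule and were chosen after their values were seen. Alternatives were centring, a loess trend (span 0.3), quantile normalization, a pseudocount of 32, floors of 6 and 8, no floor, and the mean of a gene's probe sets. Python 3.11.15, pandas 2.3.3 and statsmodels 0.14.6 were used. Shifts planted in simulated data were recovered with the deposited scale, centring and loess. Quantile normalization and the pseudocount were not tested in this way. With 1 array per genotype, the number of arrays limits precision. Some genes and sequences that these rules take are not reported here.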

Additional observations from a re-analysis of the deposited data

How the results depend on the processing

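The cytosolic median of -0.22 was -0.13 after centring and stayed between -0.22 and -0.17 under the other 7 alternatives. The mitochondrial median of -0.19 was -0.10 after centring, -0.071 after loess and -0.10 after quantile normalization. The cytosolic minus mitochondrial median, -0.03, ran from -0.11 after loess to 0.00 with a floor of 8, which left 1 mitochondrial gene. The Wars difference of 0.28 was 0.37 after centring and otherwise 0.27 to 0.32. The count of members at least 1.5-fold lower, 1, was 0 after centring, loess, quantile normalization or a pseudocount of 32, since Iars lay just past the threshold, and 3 with a floor of 6 or no floor, which let in dim genes. The count at least 1.5-fold higher was 0 in all 8 alternatives. Of the 28 members 20 to 22 were lower in the 4 rescaled versions, while 50 to 60.6% of all genes were. Chosen after seeing the data, the same rescalings left the medians of the tRNA lists below 0 but nearer to it after loess, and that of the ATF4 list changed sign, being -0.05 as deposited but 0.04 after centring, 0.03 after loess and 0.01 after quantile normalization. A median or log2 difference was called moved when it shifted by more than 0.08, the median gap between probe sets of the same gene. A count was called moved when it changed by more than 1.5-fold, or between 0 and another value. No paired analysis was possible because each genotype has 1 array.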
